A study of Homo sapiens with 8 samples.

Results

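The Fc receptor genes examined were FCGR1A, FCGR2A, FCGR2B, FCGR3A, FCGR3B, FCER1G, FCER1A, FCAR and FCGRT, a list of 9 genes among the 20098 protein-coding genes of the annotation. The list is one of gene names, its rule uses no measured value, and it was drawn up with earlier results of these data known. All 9 genes were found on hg19, 7 of them on chromosome 1 and 2 on chromosome 19. HL-60 is a human cell line of promyelocytic leukemia, and all-trans retinoic acid (ATRA) drives it towards granulocytes. The cells received 1 µM ATRA in ethanol for 4 days (the ATRA group) or the same volume of ethanol (the control group). Each group gave 2 libraries for H3K4me3, a histone mark of active promoters, and 2 for H3K27ac, a mark of active promoters and enhancers. The values are the broad peaks called in each of these 8 libraries. The labels number the libraries as replicates but do not say whether they came from separate cultures.

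Fc receptors bind the constant part of antibodies and so connect antibody recognition with phagocytosis, degranulation and the uptake or recycling of antibody. FCGR1A encodes the high-affinity IgG receptor, FCGR2A and FCGR3A encode activating IgG receptors, FCGR3B encodes a lipid-anchored receptor of neutrophils, and FCGR2B encodes the inhibitory IgG receptor. FCER1G encodes the common gamma chain, the signalling subunit that several of these receptors share, while FCER1A encodes the IgE-binding chain, FCAR the IgA receptor and FCGRT the heavy chain of the neonatal receptor, which protects IgG from degradation inside cells.

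Differences that did not overlap between the groups at the start of the gene were found at FCER1G and FCGRT. At FCER1G the promoter peak of both marks was longer in both ATRA libraries than in both control libraries. At FCGRT a long H3K27ac peak lay over the transcription start site (TSS) in both ATRA libraries and in neither control library, with no H3K4me3 peak at that TSS in any library. FCGR2A carried both marks at its TSS in all 8 libraries, with values that overlapped between the groups. The other 6 genes had no H3K4me3 peak within 1 kb of the TSS in any library.

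Whole libraries differed in how much was called. The 4 H3K4me3 libraries held between 13241 and 16487 peaks and the 4 H3K27ac libraries between 15457 and 39332. The log2 ratio of total length under peaks, ATRA over control, was 0.22 for H3K4me3 and 0.87 for H3K27ac. Counting only peaks seen in both replicates, the study reported fewer peaks in ATRA-treated than in control cells for both marks. The reason for this opposite order was not tested. The H3K27ac control replicate 1 library covered 28.8 Mb against 54.0 Mb in control replicate 2, and the ATRA libraries covered 64.8 and 86.1 Mb. Read depth is unknown. Among markers of the cell type, a peak lay within 1 kb of the TSS for 6 to 7 of 9 promyelocytic and myeloid genes in the H3K4me3 libraries, against 0 of 5 T and NK cell genes and 0 to 1 of 4 B cell genes (0 to 1 of 5 and 2 of 4 in the H3K27ac libraries). Of 5 mast cell and basophil genes, 1 had an H3K4me3 peak in each library and 0 to 2 an H3K27ac peak. Of 4 erythroid genes, 0 to 1 had a peak of either mark. Of 7 differentiated granulocyte genes, 7 had an H3K27ac peak in each ATRA library, and 2 and 4 in the control libraries. For H3K4me3 these were 6 and 5 in the ATRA libraries and 4 and 3 in the control libraries. Of 4 monocyte and macrophage genes, 1 had an H3K4me3 peak in each ATRA library and 0 in the control libraries. For H3K27ac, 1 had a peak in each ATRA library, and 0 and 1 in control replicates 1 and 2. The part of such shifts in the values of the Fc receptor genes was not tested.

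The promoters of the 3 genes with a peak over the TSS in both ATRA libraries are shown first, as the 250 bases before the TSS on hg19, from RefSeq (GRCh38.p14 table) placed by an exact match. FCGR2A is shown beside FCGR1A because both hold one 20-base run, in capitals, which was found in 2 of 35116 promoters of 300 bases. The run was taken as the longest that these 2 stretches share, so few other promoters were likely to hold it. It begins at −52 from the FCGR1A TSS and at −51 from the FCGR2A TSS. On the opposite strand the run contains GAGGAA, an extended form of the GGAA core bound by ETS factors such as PU.1, at −46 and −45. GAGGAA occurred on either strand in 27.9% of the promoters, and the shorter GGAA, which it contains, in 95.5%. In FCER1G and FCGRT the capitals mark GGAA on either strand, with 8 and 5 sites. A match is a description of the letters and not evidence of binding.
FCGR2A, chr1:161474997-161475246, + strand: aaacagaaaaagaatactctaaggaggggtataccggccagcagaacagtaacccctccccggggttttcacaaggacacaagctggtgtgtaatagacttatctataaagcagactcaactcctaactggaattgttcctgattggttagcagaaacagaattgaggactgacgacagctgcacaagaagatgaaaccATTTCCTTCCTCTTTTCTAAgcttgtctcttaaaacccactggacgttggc
FCGR1A, chr1:149754000-149754249, + strand: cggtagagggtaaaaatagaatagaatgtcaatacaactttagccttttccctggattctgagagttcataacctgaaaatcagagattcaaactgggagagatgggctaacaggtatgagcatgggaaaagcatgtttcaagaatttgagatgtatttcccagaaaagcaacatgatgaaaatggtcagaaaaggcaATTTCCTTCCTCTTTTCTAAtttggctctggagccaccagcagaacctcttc
FCER1G, chr1:161184835-161185084, + strand: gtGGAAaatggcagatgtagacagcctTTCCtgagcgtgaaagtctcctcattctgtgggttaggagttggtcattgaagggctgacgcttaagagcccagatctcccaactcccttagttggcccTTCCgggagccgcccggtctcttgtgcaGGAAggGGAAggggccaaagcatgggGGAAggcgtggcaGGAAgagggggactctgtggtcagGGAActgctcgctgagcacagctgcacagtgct
FCGRT, chr19:50015668-50015917, + strand: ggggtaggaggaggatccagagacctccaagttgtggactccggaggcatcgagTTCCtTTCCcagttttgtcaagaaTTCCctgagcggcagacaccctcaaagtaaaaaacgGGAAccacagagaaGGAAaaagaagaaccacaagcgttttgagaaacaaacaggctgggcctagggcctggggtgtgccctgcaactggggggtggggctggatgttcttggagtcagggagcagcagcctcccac

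The peaks were read against these promoters. The FCGR2A stretch lay wholly under H3K4me3 and H3K27ac peaks in all 8 libraries, whereas the FCGR1A stretch, with the same run, lay under none. Within 1 kb of the TSS, 14.9% of 50-base words at FCGR1A occur once in the genome, against 92.7% at FCGR2A. The part of this in the contrast was not tested. The FCER1G stretch was under an H3K4me3 peak in both ATRA libraries and control replicate 1, and in control replicate 2 the peak began 20 bp past the TSS. For H3K27ac it was covered in both ATRA libraries and control replicate 2, and not in control replicate 1. The FCGRT stretch was under an H3K27ac peak in both ATRA libraries only.

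The measure of each gene was the length under peaks over the gene body plus 10 kb on each side, in base pairs. A gene was counted as higher when both ATRA libraries lay above both control libraries, and as lower in the opposite case. No p-value is given for any gene, since with 2 libraries against 2 the smallest exact two-sided p is 0.33. By this rule 1 of 9 Fc receptor genes was higher for H3K4me3 (FCER1G), where 28% of all protein-coding genes were, and 1 was lower (FCGR3B), where 2.64% were. For H3K27ac, 3 of 9 were higher (FCER1G, FCER1A and FCGRT), against 30.3% of all genes, and 0 were lower, against 2.86%. Among genes with a peak in the window, 1 of 5 members was higher and 1 lower for H3K4me3, against 40.8% and 3.85% of all such genes, and 3 of 8 were higher and 0 lower for H3K27ac, against 41.6% and 3.93%. The counts of higher genes were therefore close to, or below, those of all genes. After each library was scaled to equal total length, the background changed to 11% higher and 16.9% lower for H3K4me3 and to 12.9% and 18.5% for H3K27ac. The same genes, FCER1G for H3K4me3 and FCER1G, FCER1A and FCGRT for H3K27ac, were higher after scaling, and FCGR2A and FCGRT joined FCGR3B as lower for H3K4me3. Scaling moved the median log2 ratio of all genes with a peak in the window from 0.15 to −0.04 for H3K4me3 and from 0.45 to −0.14 for H3K27ac.

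**Figure D1:**
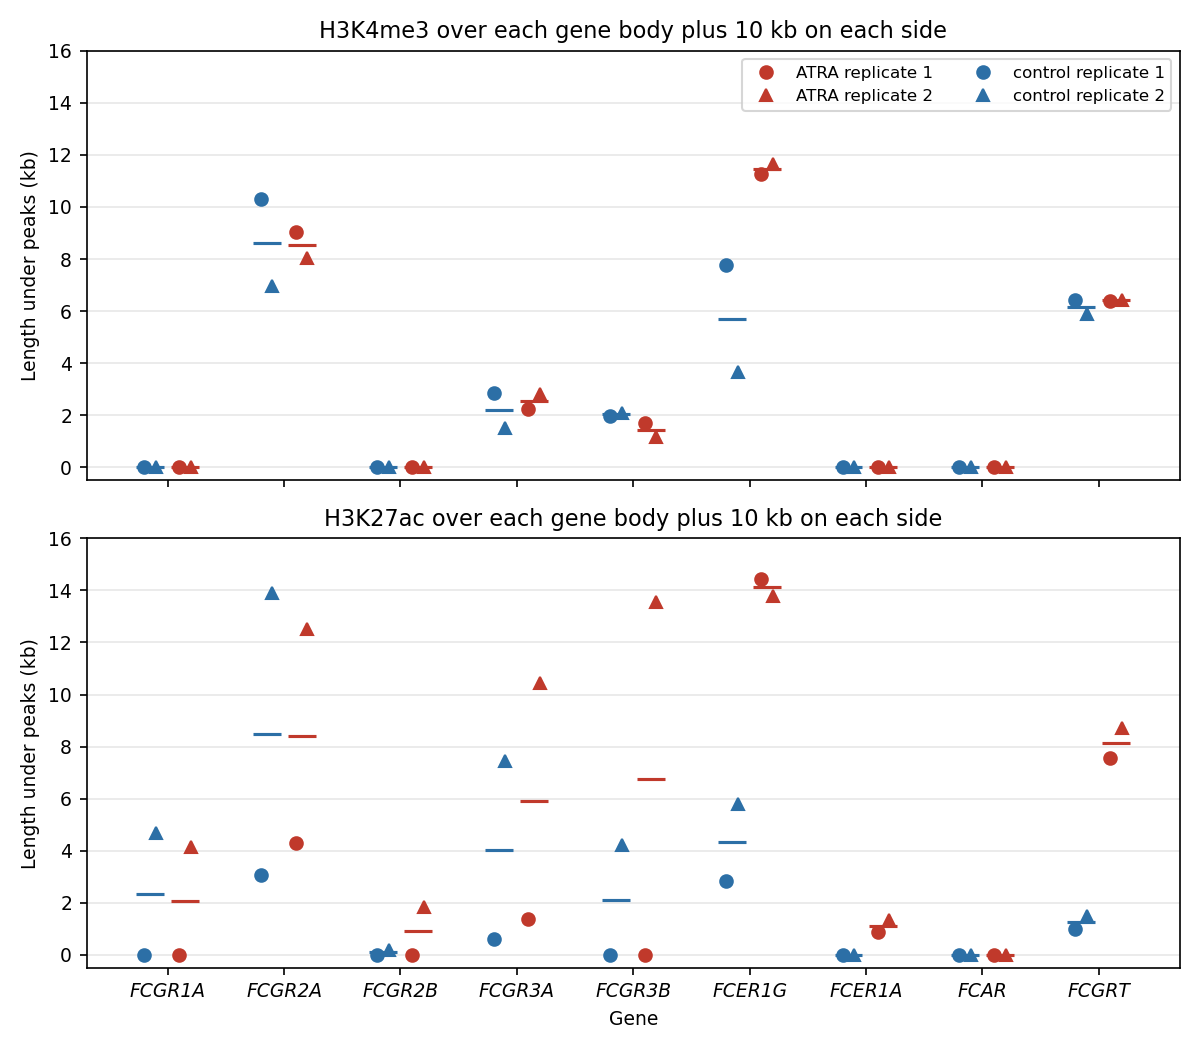
Length under peaks (kb) over each gene body plus 10 kb on each side for the 9 genes (x axis), with H3K4me3 in the upper and H3K27ac in the lower panel. Each point is a library and each bar the mean of 2 libraries. The red ATRA points of FCER1G lie above the blue control points in both panels, those of FCGRT only in the lower panel, and the H3K27ac points of the FCGR genes split by replicate number.

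The size of a change is given as the log2 ratio of the mean lengths, ATRA over control, after 1000 bp was added to each, which understates changes at genes with little under peaks. The median log2 ratio of the 9 genes was 0.00 for H3K4me3, beside 0.04 over all protein-coding genes. For H3K27ac it was 0.82 beside 0.18, with 0.39 from the libraries numbered 1 and 1.13 from those numbered 2. The H3K27ac median of the 9 genes sat on FCGR2B, whose values came from 1 replicate number only. The 9 genes include 4 without an H3K4me3 peak in the window, each with an H3K4me3 ratio of 0. Among genes with a peak in the window, the H3K4me3 median was 0.05 for 5 members, beside 0.15 for all such genes. The H3K27ac median was 0.94 for 8 members, beside 0.45.

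**Figure D2:**
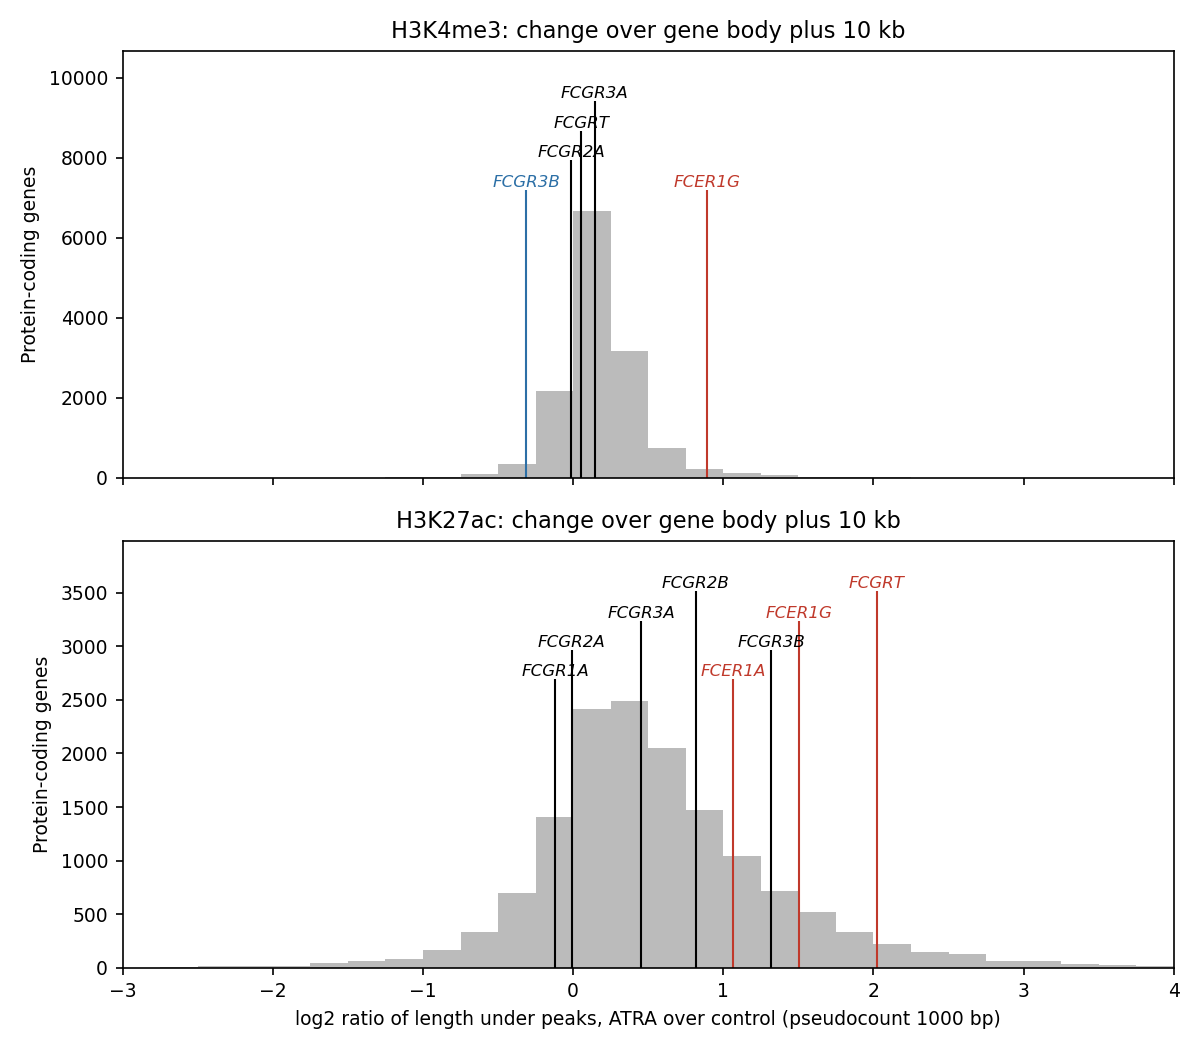
Number of protein-coding genes (y axis) by log2 ratio of length under peaks, ATRA over control (x axis, bins of 0.25), for genes with a peak in the window, with H3K4me3 above and H3K27ac below. Vertical lines mark the Fc receptor genes with a peak, in red where both ATRA libraries were above both control libraries, in blue where below and in black where they overlapped. FCER1G at 0.89 stands in the right tail for H3K4me3, and FCGRT at 2.02 for H3K27ac.

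FCER1G (ENSG00000158869, chr1:161185024-161190489, + strand, TSS at 161185085) encodes the common gamma chain. Its H3K4me3 window held 11266 and 11652 bp under peaks in ATRA replicates 1 and 2, and 7766 and 3656 bp in control replicates 1 and 2. Both ATRA libraries were above both control libraries, with a log2 ratio of 0.89 (0.48 within replicate number 1 and 1.44 within number 2). This ratio was above that of 97.3% of the 13779 genes with an H3K4me3 peak in the window. The chromatin came from bulk cells, so more cells carrying the mark and more mark per cell cannot be told apart.

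Within the FCER1G gene body alone, H3K4me3 peaks covered 5466 and 4877 bp in the ATRA libraries and 2893 and 1687 bp in the control libraries. The groups again did not overlap, and the log2 ratio was 0.91. The difference lay in the width of the peak at the start of the gene. In ATRA replicate 1 it ran from −1972 to 5582 bp relative to the TSS, and in ATRA replicate 2 from −1981 to 4815 bp. In control replicate 1 it ran from −606 to 2831 bp and in control replicate 2 from 20 to 1706 bp. The upstream edge was at nearly the same place in both ATRA libraries, and both edges lay farther out than in either control library. The ATRA replicate 1 peak also covers the start of AL590714.1, which lies inside the gene body, and with all peaks over another coding TSS left out the H3K4me3 values of FCER1G overlapped between the groups (log2 ratio 0.30).

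H3K27ac at FCER1G followed the same order. The window held 14429 and 13802 bp in the ATRA libraries and 2848 and 5786 bp in the control libraries. The log2 ratio was 1.51 (2.00 and 1.13 by replicate number), above that of 89.3% of the 14622 genes with an H3K27ac peak in the window, and 0.79 after scaling to equal total length. A separate peak over the TOMM40L start was 7660 and 6345 bp long in the ATRA libraries and 1148 and 1761 bp in the control libraries. With all peaks over another coding TSS left out, the log2 ratio was 1.07 and the groups still did not overlap. The peak at the TSS was 6394 and 6022 bp long in the ATRA libraries and 1700 and 2703 bp in the control libraries, and the gene body held 4474 and 4463 bp against 1700 and 1942 bp. Both marks were higher over the windows of 12.3% of all genes. With only peaks of −log10 q of at least 5, the libraries overlapped for both marks at FCER1G, since the TSS peak of H3K4me3 in ATRA replicate 2 (2.58) and every H3K27ac peak of the window in ATRA replicate 1 (at most 2.62, over TOMM40L) fell below that value. By numbers of peaks the libraries overlapped as well.

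FCGRT (ENSG00000104870, chr19:50010073-50029685, + strand, TSS at 50015918) encodes the neonatal Fc receptor. Its H3K27ac window held 7556 and 8707 bp in the ATRA libraries and 984 and 1509 bp in the control libraries. The groups did not overlap, the log2 ratio was 2.02 (2.11 and 1.95 by replicate number), and 95.2% of the genes with an H3K27ac peak in the window had a smaller one. Scaled to equal total length it was 1.39.

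Over the FCGRT TSS, a single H3K27ac peak ran from −1545 to 4403 bp in ATRA replicate 1 and from −1530 to 4783 bp in ATRA replicate 2. Control replicate 1 had no peak in the gene body, and control replicate 2 had one of 397 bp, from 3994 to 4390 bp past the TSS, inside the stretch that the ATRA peaks covered. FCGRT was the only one of the 9 genes with a TSS peak in both ATRA libraries and in neither control library, a pattern held by 2.51% of all genes for H3K27ac. For H3K4me3, 0 of the 9 genes had it, against 0.318% of all genes. The 2001 bp within 1 kb of the TSS were fully covered in both ATRA libraries and uncovered in both control libraries, a log2 ratio of 1.59 that was above that of 99.6% of 10595 genes. With the pseudocount of 1000 bp this is the highest ratio that the measure allows, so the rank only restates the gain. The −log10 q values of the ATRA peaks were 6.29 and 11.3, so the call held at the stricter threshold.

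No H3K4me3 peak lay in the FCGRT gene body or within 1 kb of its TSS in any library. A gain of H3K27ac at the TSS with no H3K4me3 peak there in any library was seen at 131 genes, 0.652% of all. The H3K4me3 window of FCGRT held 6394, 6434, 6413 and 5874 bp in ATRA replicates 1 and 2 and control replicates 1 and 2. All of it lay outside the gene body, in a peak upstream of the gene and in a peak that began 20230 to 20322 bp past the TSS and lies beyond the start of RCN3. These values overlapped between groups, with a log2 ratio of 0.05, and after scaling to equal total length both ATRA libraries were below both control libraries (−0.15).

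**Figure D3:**
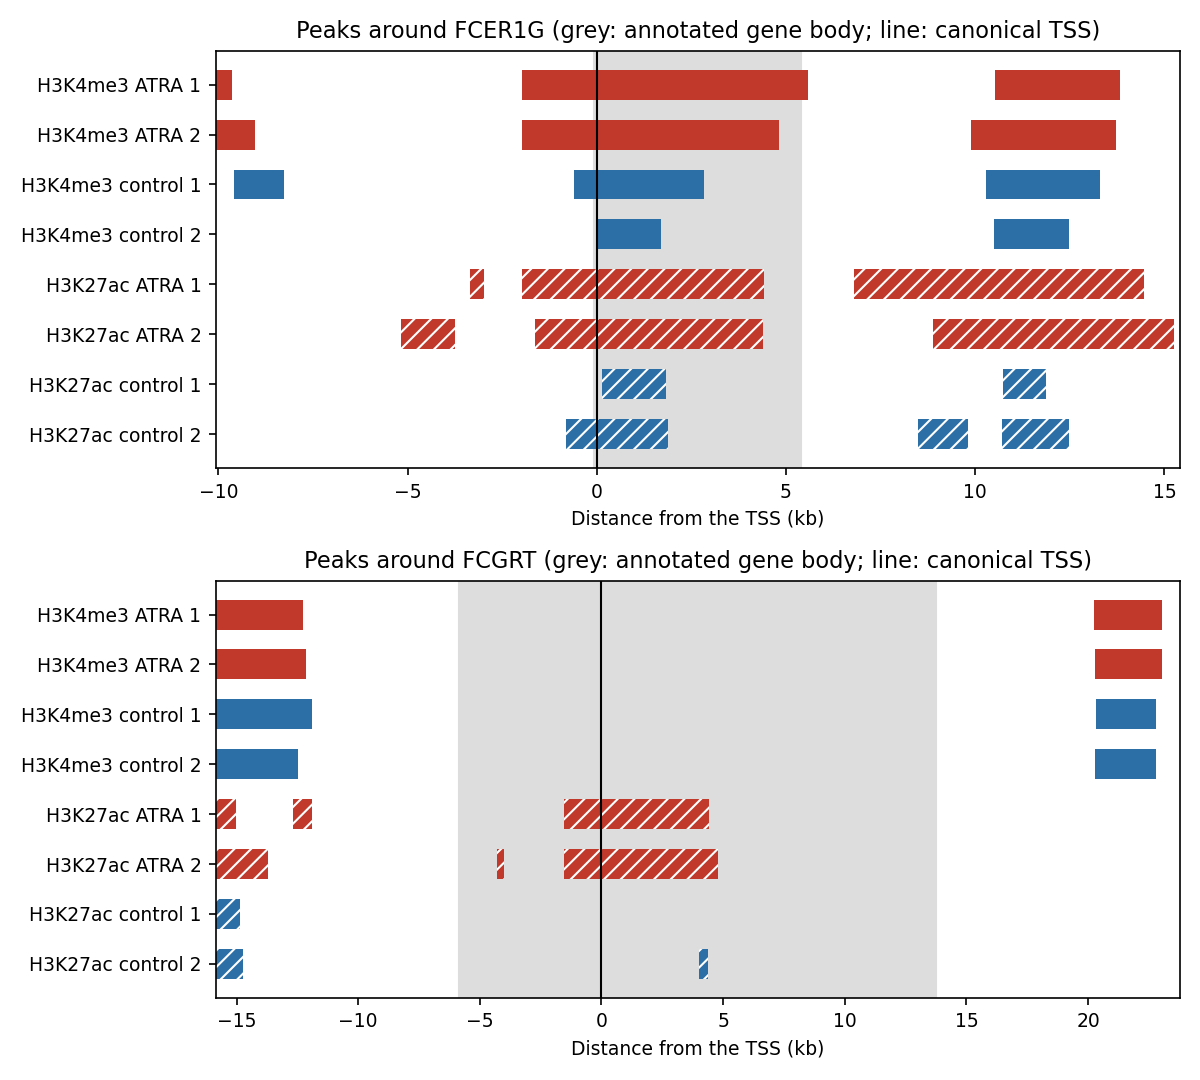
Peaks of the 8 libraries around FCER1G (upper panel) and FCGRT (lower panel), by distance from the TSS (kb), with ATRA in red, control in blue and H3K27ac hatched. The grey band is the annotated gene body and the black line the canonical TSS. At FCER1G the ATRA peaks over the TSS extend past the control peaks on both sides, and at FCGRT an H3K27ac peak covers the TSS only in the ATRA libraries.

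FCGR2A (ENSG00000143226, chr1:161475220-161493803, + strand, TSS at 161475247) encodes an activating low-affinity IgG receptor of neutrophils and monocytes. Its H3K4me3 peak over the TSS was 4095 and 3017 bp long in the ATRA libraries and 3379 and 3319 bp in the control libraries. The H3K27ac peak there was 2672 and 3355 bp long in the ATRA libraries and 1865 and 3152 bp in the control libraries. For both marks the control lengths overlapped the ATRA lengths. FCGR2A and FCER1G were the 2 Fc receptor genes with an H3K4me3 peak within 1 kb of the TSS in all 4 libraries, beside 53% of all genes. The same 2 genes had an H3K27ac peak there in all 4 libraries, beside 34.8% of all genes. The share of all genes with both was not counted.

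The wider FCGR2A window held 9052 and 8031 bp of H3K4me3 in the ATRA libraries and 10299 and 6953 bp in the control libraries, a log2 ratio of −0.01. For H3K27ac the values were 4314 and 12501 bp in the ATRA libraries and 3049 and 13883 bp in the control libraries, again with a log2 ratio of −0.01. Here the libraries numbered 2 were high and those numbered 1 low in both groups. Part of the window is shared with HSPA6, a heat shock gene next to FCGR2A whose start carried an H3K4me3 peak in all 4 libraries. By Euclidean distance between the log2 lengths in the TSS and gene windows over the 8 libraries, the protein-coding genes most like FCGR2A were CITED2 (distance 0.47) and TLK1 (0.56), against a median of 5.69 over all genes. Those most like FCER1G were TBL2 (0.97) and TATDN2 (1.04), with a median of 5.61.

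FCGR3A, FCGR3B and FCGR2B follow FCGR2A on chromosome 1 in a region that is duplicated in the genome. Aligned to itself, the 210 kb from 161460000 to 161670000 held 10 alignments of at least 500 bp between copies 60 to 100 kb apart, 84796 bp in all, with a mean identity of 97.7%. The longest, 26597 bp at 98.9% identity, joins the stretch that holds the start of FCGR2C to the one that holds the start of FCGR2B. Reads from such stretches may fit both copies, and the read length and the treatment of reads with several matches are not given in the sources used here. The share of 50-base words that occur once in the genome, within 1 kb of the TSS, was 92.7% for FCGR2A, 61.4% for FCGR3A, 61.7% for FCGR3B, 14.9% for FCGR1A and 2.56% for FCGR2B. It was 86.9% for FCER1G, 93.6% for FCGRT, 91.1% for FCAR and 100% for FCER1A.

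The promoters show how close these copies are. Over the 250 bases before the TSS, FCGR3A and FCGR3B differ at 16 bases, in capitals in both, and are 93.6% identical. For FCGR2B the capitals mark GAGGAA, with 2 sites, and the same 250 bases occur a second time on the chromosome, before the FCGR2C start at 161551129.
FCGR3A, chr1:161519609-161519858, − strand: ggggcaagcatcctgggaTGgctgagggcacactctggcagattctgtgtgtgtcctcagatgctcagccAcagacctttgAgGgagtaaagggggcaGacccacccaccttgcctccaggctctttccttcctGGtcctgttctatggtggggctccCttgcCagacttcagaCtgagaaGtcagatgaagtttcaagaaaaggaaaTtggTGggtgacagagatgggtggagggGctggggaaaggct
FCGR3B, chr1:161600967-161601216, − strand: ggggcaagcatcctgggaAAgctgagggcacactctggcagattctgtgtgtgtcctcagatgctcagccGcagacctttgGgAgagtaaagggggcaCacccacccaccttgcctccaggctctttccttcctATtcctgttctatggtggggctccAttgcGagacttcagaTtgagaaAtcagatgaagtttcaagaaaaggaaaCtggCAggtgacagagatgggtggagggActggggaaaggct
FCGR2B, chr1:161632683-161632932, + strand: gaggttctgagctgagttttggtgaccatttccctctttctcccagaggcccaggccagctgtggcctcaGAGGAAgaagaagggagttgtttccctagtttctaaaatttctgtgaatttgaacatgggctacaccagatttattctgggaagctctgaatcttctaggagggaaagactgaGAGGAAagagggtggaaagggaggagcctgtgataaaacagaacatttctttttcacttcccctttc

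FCGR3A (ENSG00000203747, chr1:161511549-161520758, − strand) had no peak of either mark within 1 kb of its TSS in any library. Its H3K4me3 window held 2237 and 2821 bp in the ATRA libraries and 2869 and 1523 bp in the control libraries, with overlapping groups. None of this was in the gene body, and part of it came from a peak that also lies in the FCGR2A window. The H3K27ac values were 1374 and 10434 bp in the ATRA libraries and 624 and 7453 bp in the control libraries, a log2 ratio of 0.45. The groups overlapped, although the ATRA library was above the control library within each replicate number (log2 ratios of 0.55 and 0.44), as for 43.4% of all genes. In the libraries numbered 1, all of this length came from 1 peak each, also in the FCGR2A window, and the gene body held 0 bp. These peaks lay 16686 to 18619 bp past the FCGR3A TSS.

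FCGR3B (ENSG00000162747, chr1:161592986-161601753, − strand) was the 1 gene that was lower for H3K4me3. Its window held 1718 and 1168 bp in the ATRA libraries and 1988 and 2077 bp in the control libraries, a log2 ratio of −0.31. All of it was in 1 peak per library outside the gene body, between 8807 and 10932 bp past the TSS. A copy of that stretch, 94.6% identical over 2153 bp, lies near FCGR3A and had a peak in all 4 libraries as well, with 1440 and 1516 bp in the ATRA libraries and 1690 and 1394 bp in the control libraries, which overlapped. With a flank of 0 or 25 kb in place of 10 kb, FCGR3B was not lower. For H3K27ac the FCGR3B window held 0 and 13535 bp in the ATRA libraries and 0 and 4221 bp in the control libraries, so both libraries numbered 1 had no peak. A peak of 990 bp over the TSS was found in ATRA replicate 2 alone, and at 8683 bp the longest peak of the window was in the same library.

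FCGR2B (ENSG00000072694, chr1:161632933-161648444, + strand) had no H3K4me3 peak in its window and no peak of either mark in its gene body. The H3K27ac window held 0 and 1848 bp in the ATRA libraries and 0 and 186 bp in the control libraries, at its upstream edge. The log2 ratio of 0.82 therefore came from the libraries numbered 2.

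FCGR1A (ENSG00000150337, chr1:149754227-149763231, + strand) lies apart from this cluster and also had no H3K4me3 peak in its window, as 31.4% of all genes did. Its H3K27ac window held 0 and 4153 bp in the ATRA libraries and 0 and 4675 bp in the control libraries. The libraries numbered 2 had 7 peaks each, between 200 and 1412 bp long, and the nearest lay 575 and 621 bp upstream of the TSS. Neither group was above the other, with a log2 ratio of −0.12. Of the 50-base words in the FCGR1A window, 25.2% were unique, fewer than for FCGR2B (46.3%), FCGR3B (49.6%) and FCGR3A (50.1%). The part of this in the peaks called or absent at FCGR1A was not tested.

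The split by replicate number was common to the FCGR genes. FCGR1A, FCGR2B and FCGR3B had H3K27ac peaks in both libraries numbered 2 and in neither numbered 1, a pattern seen in 4.58% of the 14622 genes with an H3K27ac peak in the window. In FCGR1A, FCGR2A, FCGR2B, FCGR3A, FCGR3B and FCGRT, 6 of the 8 Fc receptor genes with such a peak, replicate 2 was above replicate 1 in both groups, as in 51.4% of those genes. Across the 210 kb of the cluster, H3K27ac peaks covered 4314 and 52941 bp in ATRA replicates 1 and 2 and 3049 and 36998 bp in control replicates 1 and 2. Of 26 merged H3K27ac stretches that lie wholly inside it, 2 had a peak in all 4 libraries and 24 only in libraries numbered 2. The share of unique 50-base words was 74.4% in the first and 60.9% in the second, and its part in the split was not tested. For H3K4me3, 0 of the 5 genes with a peak had replicate 2 above replicate 1 in both groups, beside 7.4% of all genes with one, and the cluster held 13970 and 12235 bp in the ATRA libraries, 15633 and 11766 bp in the control libraries, with 6 of 8 merged stretches in all 4 libraries.

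**Figure D4:**
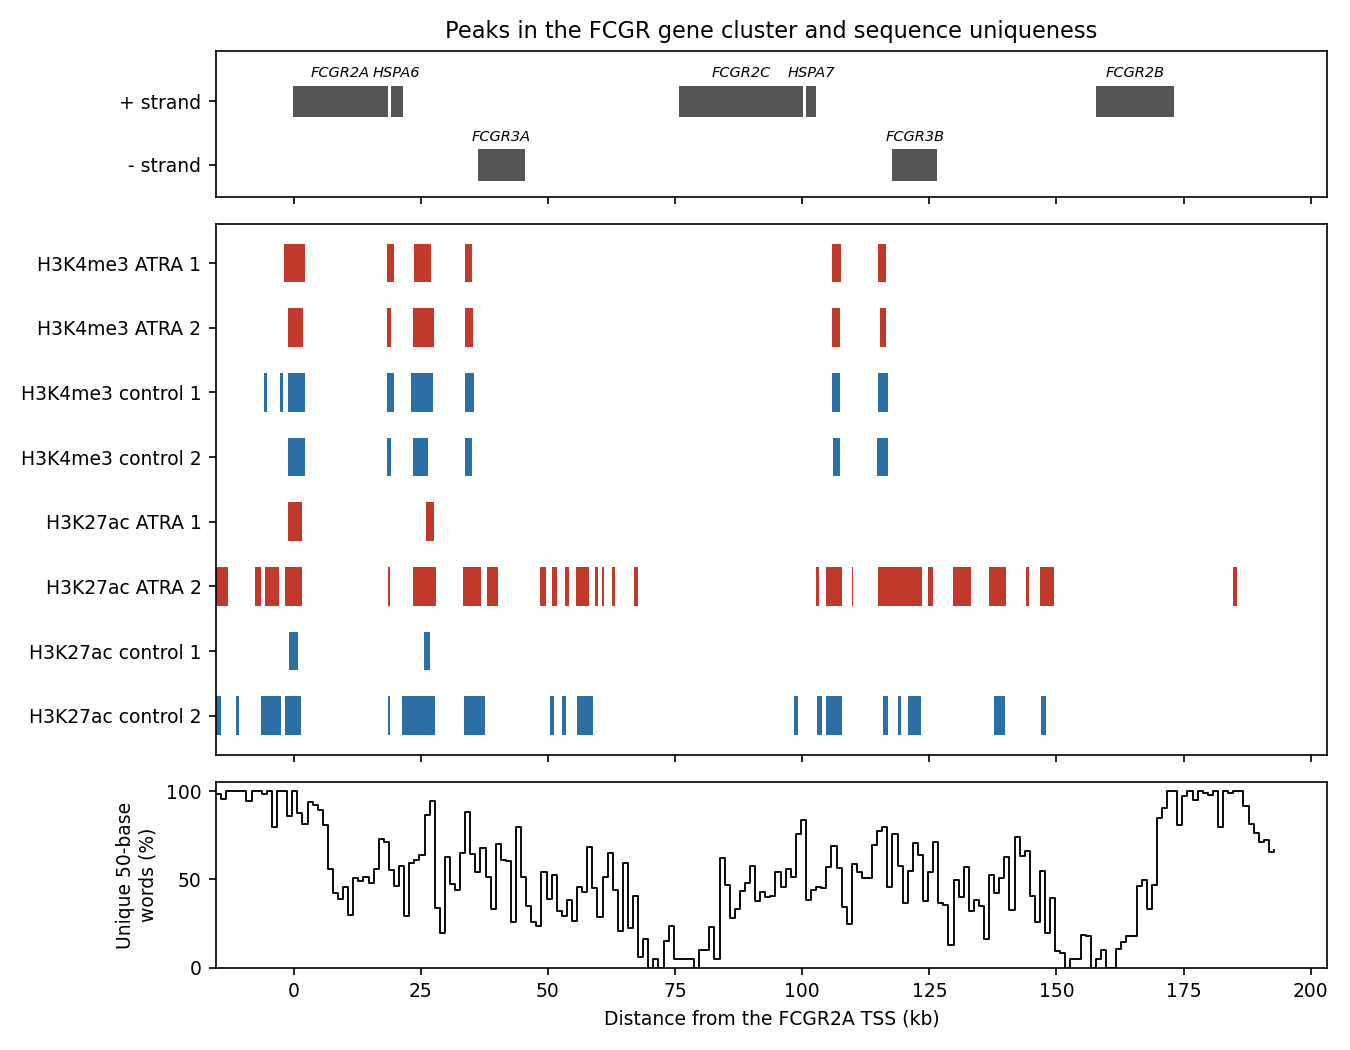
Map of the FCGR cluster by distance from the FCGR2A TSS (kb), with genes by strand at the top, the peaks of the 8 libraries in the middle (ATRA red, control blue) and the share of unique 50-base words in bins of 1 kb at the bottom (%). Of 8 merged H3K4me3 stretches 6 have a peak in all 4 libraries, and the H3K27ac libraries numbered 2 hold many peaks that those numbered 1 lack in both groups.

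FCER1A (ENSG00000179639, chr1:159259504-159278014, + strand) had no H3K4me3 peak in its window, and none of either mark within 1 kb of its TSS. It was counted as higher for H3K27ac with 867 and 1326 bp in the ATRA libraries and 0 bp in both control libraries, a log2 ratio of 1.07. The peaks of the ATRA libraries shared no position. In replicate 1 the single peak lay over the start of OR10J3, an olfactory receptor gene beyond the 3′ end of FCER1A, and in replicate 2 one peak of 636 bp lay in the gene and one of 690 bp past OR10J3. FCER1A was not higher with only peaks of −log10 q of at least 5, with a flank of 0 or 5 kb, with only peaks found in both replicates, or without the start of OR10J3 or the peak over it.

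FCAR (ENSG00000186431, chr19:55385691-55402786, + strand), the IgA receptor gene, had no peak of either mark in its window in any of the 8 libraries. For H3K27ac it was the only Fc receptor gene without one, where 27.2% of all genes had none. Of the 50-base words in its window, 82.1% were unique. Counting all 9 genes, 7 had no H3K4me3 peak and 4 (FCGR2B, FCGR3A, FCER1A and FCAR) no H3K27ac peak within 1 kb of the TSS in any library, where 43.9% and 47.3% of all genes had none.

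The partners of the receptors were read in the same way. Of 18 genes of Fc receptor signalling, 17 had an H3K4me3 peak within 1 kb of the TSS in all 4 libraries, 3 were higher for H3K4me3 (FGR, VAV1 and WAS) and 0 lower, where all genes had 53%, 28% and 2.64%. The median log2 ratio was 0.15. For H3K27ac, 12 of 18 (66.7%) were higher, beside 30.3% of all genes and 41.6% of those with an H3K27ac peak in the window, 0 were lower, and the median log2 ratio was 1.09. After scaling to equal total length, 7 were higher and 4 lower for H3K27ac, and 2 higher and 4 lower for H3K4me3, where 12.9% and 18.5% of all genes were for H3K27ac and 11% and 16.9% for H3K4me3. The list was chosen with earlier results of these data known, so the counts are a description.

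FGR, a Src-family kinase of myeloid cells, had the largest ratio of the signalling list for both marks. Its H3K27ac window held 26278 and 32289 bp in the ATRA libraries and 0 and 3957 bp in the control libraries, a log2 ratio of 3.35. For H3K4me3 it held 16837 and 12048 bp against 4865 and 2744 bp, a log2 ratio of 1.68. Within 1 kb of the FGR TSS, H3K4me3 peaks covered 0 bp in every library, unlike at the other genes of this list. H3K27ac peaks covered 2001 bp there in each ATRA library and 0 bp in each control library. Such an H3K27ac gain at the TSS was held by 1 of the 18 signalling genes, beside 2.51% of all genes. The kinase LYN, which phosphorylates the gamma chain and the receptors, had an H3K27ac log2 ratio of 1.61. The phospholipase PLCG2, the kinase PRKCD and the ubiquitin ligase CBL had H3K27ac log2 ratios of 1.71, 1.71 and 1.59, and the exchange factor VAV1 1.34. All 6 were higher in both ATRA libraries.

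Of 17 other genes of the Fc receptor family, 4 were higher for H3K4me3 (FCRL1, FCRL6, FCMR and TRIM21) and 6 for H3K27ac (FCER2, FCRL2, FCRL6, FCMR, FCAMR and PIGR), with 0 lower in either mark. These were 23.5% and 35.3% of the list, near the 28% and 30.3% of all genes. After scaling to equal total length, 4 were higher and 1 lower for H3K4me3 and 3 higher and 0 lower for H3K27ac. FCAMR, a receptor for IgA and IgM, had the largest H3K27ac log2 ratio, 2.66, with 6265 and 4343 bp in the ATRA libraries and 0 bp in both control libraries. FCRL2 followed at 2.24 and FCRL6 at 1.37. FCER2, the low-affinity IgE receptor, held 15366 and 11081 bp in the ATRA libraries and 3877 and 5161 bp in the control libraries, a ratio of 1.37. The windows of FCMR, PIGR and FCAMR lie beside each other on chromosome 1, and those of FCMR and PIGR share peaks.

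**Figure D5:**
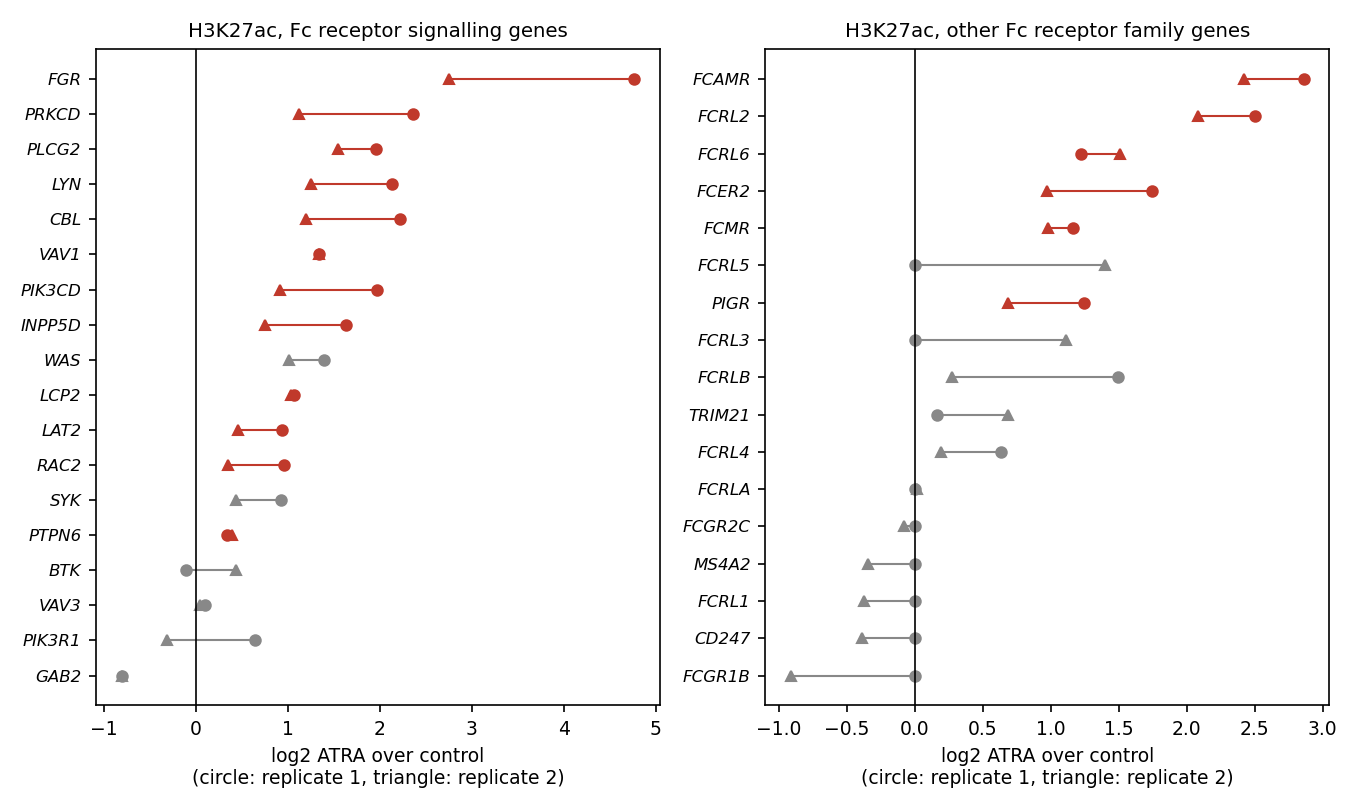
H3K27ac log2 ratio of length under peaks, ATRA over control (x axis), within replicate number 1 (circles) and 2 (triangles) for the Fc receptor signalling genes (left) and the other Fc receptor family genes (right). Red marks genes whose ATRA libraries were both above both control libraries. FGR lies farthest right among the signalling genes at both replicate numbers, and GAB2 farthest left.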

How the data were processed

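Chromatin of HL-60 cells was immunoprecipitated for H3K4me3 and H3K27ac in 8 libraries, 2 for each mark and condition. Per the labels and the methods of the study, the authors trimmed adapters, used Bowtie for alignment to hg19, and ran MACS2 in its broad mode on the libraries one by one. An input library was made from fragmented DNA. Whether peaks were called against it, the versions and the handling of reads with several matches are not given in the sources used here. The deposited files hold peak positions, read counts being absent, and −log10 q values, which the authors' peak caller gave and which served only as a filter (at least 5). The other 2 score columns hold values not possible for their measures and were not used.

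Genes, and the TSS of the canonical transcript (the 5′ end of the gene where none is marked), came from GENCODE release 44 on GRCh37. None of 174751 peaks ran past a chromosome end. Lengths under peaks were summed over the gene body plus 10 kb on each side and within 1 kb of the TSS. Changes were log2 ratios of means with a pseudocount of 1000 bp, and all 9 genes were named, with neighbours, 2 lists (up to 6 genes each) and the 2 nearest genes by pattern. Some items that this rule covers are not reported here. Uniqueness was counted for words of 36, 50 and 100 bases on GRCh37, and the FCGR region was aligned to itself with blastn 2.17.0. RefSeq promoters matched 8 of the 9 genes, all but FCAR, and 15 entries were found in GRCh37 by exact match.

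The members and lists were chosen with earlier results of these data known. Libraries with the same number share a tag in their peak names, and over gene windows their deviations from the condition means correlated (Pearson r = 0.27 over 13779 genes for H3K4me3 and 0.63 over 14622 genes for H3K27ac, a description). These r values cannot decide whether the numbers mark pairs, because the libraries of both groups differed in total length in the same direction. For H3K27ac, replicates 1 and 2 covered 64.8 and 86.1 Mb in the ATRA group and 28.8 and 54.0 Mb in the control group. For H3K4me3 they covered 63.2 and 62.3 Mb in the ATRA group and 59.8 and 47.7 Mb in the control group. Values within replicate numbers are given on an assumption of pairs by number, which rests on the shared tag. The code was tested on simulated peak lists and sequences. Python 3.11.15, numpy 2.4.6, numba 0.67.0 and matplotlib 3.10.9 were used.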

Additional observations from a re-analysis of the deposited data

How the results depend on the processing

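Alternatives were the flank, the TSS window, peaks with −log10 q of at least 5, peaks found in both replicates (1 bp or a reciprocal 50%), numbers of peaks, the pseudocount, equal total length, the neighbours' TSS, the replicate block and leaving out each library. Chosen after seeing the data were the removal of peaks over another coding TSS and the TSS of any transcript. Of the recomputed counts and medians, 94 stayed near the reported value and 22 moved. Of the recomputed log2 ratios of single genes, 222 stayed near it and 66 moved. Genes counted as higher or lower with the main settings (all peaks, a flank of 10 kb, no scaling) kept the sign of their log2 ratio or fell to 0. FCGR2A and FCGRT were lower for H3K4me3 with equal total length (−0.20 and −0.15), and their signs changed between settings. FCGR2A was at 0.26 with the reciprocal 50%, and FCGRT at 0.05 with the main settings. The H3K4me3 count of higher genes became 2 with the reciprocal 50% and 0 by numbers of peaks, and ranged from 1 to 4 without 1 library. The count of lower genes became 0 with a flank of 0 or 25 kb and by numbers of peaks and 3 with equal total length, and ranged from 1 to 3 without 1 library. The TSS count of gained genes became 1 (FCER1G) with the reciprocal 50%. Without control replicate 1, FCGR2A (0.26) and FCGR3A (0.48) were higher, and without control replicate 2 lower (−0.24 and −0.13). With −log10 q of at least 5 the count of higher genes stayed 1, but the gene was FCGR3A. The H3K27ac count of higher genes became 1 (FCGRT) with −log10 q of at least 5 and 2 with a flank of 5 kb, peaks of both replicates, numbers of peaks (FCER1A and FCGRT) and both settings for neighbours' TSS (FCER1G and FCGRT in the others). With a flank of 0 kb it was 3, with FCGR2A in place of FCER1A. It ranged from 3 to 6 without 1 library. FCGR2A was lower without control replicate 1 (−0.66) and higher without control replicate 2 (1.22). The count of lower genes ranged from 0 to 2 and that of TSS gains from 1 to 2. The H3K27ac median of 0.82 became 0 with −log10 q of at least 5 and with peaks of both replicates under either overlap, 0.19 by numbers of peaks and 1.64 with a pseudocount of 100 bp, and ranged from −0.13 (without ATRA replicate 2) to 1.62 (without control replicate 2). The cause was not tested. With the replicate block, the counts of higher genes were 1 for H3K4me3 and 4 for H3K27ac (FCGR3A added), and the medians 0.00 and 0.63. FCGRT stayed higher for H3K27ac in every alternative run, with log2 ratios from 0.68 by numbers of peaks and 1.03 with a flank of 25 kb to 2.68 without peaks over another coding TSS. Without those peaks FCER1G was not higher for H3K4me3 (0.30), because its ATRA replicate 1 peak also covers the start of AL590714.1, and FCGRT was higher (0.11). Without read counts, depth cannot be separated from the length called.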
